A study of Homo sapiens with 8 samples.

Results

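The zinc finger gene clusters of human chromosome 19 were described by the islands of H3K27me3 that lie in them. H3K27me3 is the repressive histone mark written by EZH2, the methyltransferase of Polycomb repressive complex 2. It was measured by ChIP-seq, in which chromatin fragments bound by an antibody are sequenced beside an input library of unselected chromatin. The clusters were taken as 5 fixed hg19 intervals of chromosome 19, from 19.70 to 24.40, 36.60 to 38.40, 44.30 to 45.00, 52.40 to 54.00 and 56.50 to 59.10 Mb, called clusters 1 to 5 here. The rule uses positions alone, but the intervals were picked with earlier results of these data known. The members were 36 islands overlapping these 11.4 Mb by at least 1 bp, 6 of 58144 in the list of LY19WT and 30 of 47432 in the list of LY19Y646F. Both are immortalized lymphoma B-cell lines and were untreated. LY19WT has wild-type EZH2, and LY19Y646F constitutively expresses the EZH2-Y646F mutant, altered in the catalytic domain, under a CMV promoter. The labels do not say whether endogenous EZH2 is also made there. Each line gave 3 ChIP libraries and 1 input. The ChIP libraries of a line were merged before islands were called, so each line has 1 list, no value has a spread between replicates, and the lines were compared without a test.

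KRAB zinc finger proteins are the largest family of transcriptional repressors in the human genome. Their zinc fingers bind DNA, often in retrotransposons, and their KRAB domain recruits TRIM28, which brings the methyltransferase SETDB1 and the other repressive mark H3K9me3. The genes arose by tandem duplication and lie side by side in clusters, the largest of them on chromosome 19, where the genes themselves are known in many cell types as targets of H3K9me3 rather than of Polycomb.

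The gene content of the chromosome was read from RefSeq on GRCh38.p14, for names and neighbours only, because the islands are on hg19 and positions were not converted. Of 1451 protein-coding genes of chromosome 19, 266 carry a zinc finger family symbol. The longest unbroken row of them has 27 genes, from ZNF737 to ZNF681, and includes ZNF91, a repressor of SVA retrotransposons. Other long rows include 24 genes from ZNF565 to ZNF793, 24 from ZNF627 to ZNF791, 23 from ZNF772 to ZNF256 and 20 from ZNF283 to ZNF180. Shorter ones include 11 from ZNF699 to ZNF846, 10 from ZNF577 to ZNF836 and 10 from ZNF766 to ZNF83. The rows were taken by length and not matched to the cluster intervals, so a row named here may lie outside all of them. Upstream sequences are shown to let the relatedness of neighbours be seen. Each is the last 140 bases before the RefSeq start, 5′ to 3′, with the longest block shared by the first 3 genes, 17 bases, in capitals. These 3 belong to the longest row and were picked after their sequences were read. ZNF568, of the row from ZNF565 to ZNF793, is given for contrast.
ZNF91, GRCh38.p14 chr19:23395472-23395611, minus strand: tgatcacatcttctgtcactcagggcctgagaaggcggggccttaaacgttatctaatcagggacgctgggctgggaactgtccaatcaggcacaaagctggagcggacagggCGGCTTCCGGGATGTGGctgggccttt
ZNF43, GRCh38.p14 chr19:21836183-21836322, minus strand: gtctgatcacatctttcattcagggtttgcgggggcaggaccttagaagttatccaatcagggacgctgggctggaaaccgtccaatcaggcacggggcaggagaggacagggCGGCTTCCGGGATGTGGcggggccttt
ZNF208, GRCh38.p14 chr19:22010944-22011083, minus strand: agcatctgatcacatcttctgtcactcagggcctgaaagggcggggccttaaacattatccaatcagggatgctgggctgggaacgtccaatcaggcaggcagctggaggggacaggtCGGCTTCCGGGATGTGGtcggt
ZNF568, GRCh38.p14 chr19:36916192-36916331, plus strand: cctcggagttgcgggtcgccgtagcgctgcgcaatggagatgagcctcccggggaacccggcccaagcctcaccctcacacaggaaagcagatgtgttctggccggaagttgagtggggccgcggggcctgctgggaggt

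In a global alignment, ZNF91 was identical to ZNF208 in 84.2% of columns and to ZNF43 in 82.5%, against 47.1% to ZNF568. The block CGGCTTCCGGGATGTGG, searched on both strands in 300 bases around the start, was found for 7 of the 21 genes of the longest row that have a promoter entry. The block was defined on 3 of these 7, so 4 of the remaining 18 genes of the row hold it apart from that choice. It was found for 0 of 209 zinc finger genes of chromosome 19 outside the row, for 0 of its 955 protein-coding genes without a zinc finger symbol, and for 7 of 27305 symbols of the whole table (0.0256%). The 7 are ZNF43, ZNF85, ZNF91, ZNF208, ZNF431, ZNF492 and ZNF493. Promoters of the longest row hold a median of 10 CG pairs in 300 bases. The medians were 24 in the row from ZNF565 to ZNF793 and 16 in that from ZNF627 to ZNF791. They were 16.5 in the row from ZNF772 to ZNF256 and 18 in that from ZNF283 to ZNF180. These medians describe rows picked by length, not the cluster intervals. Over all zinc finger genes of the chromosome the median was 21, close to the 23 of its other protein-coding genes.

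H3K27me3 islands covered little of the zinc finger clusters in both lines. They covered 26.4 kb of the 11.4 Mb in LY19WT (0.232%), and in LY19Y646F 201.0 kb (1.76%). The rest of chromosome 19, measured between its outermost islands, was covered to 16.3% and 17.4%. This rest may hold rows of zinc finger genes too, since genes were not placed on hg19. Per Mb, LY19WT had 0.526 islands in the clusters and 20.7 in the rest, and LY19Y646F had 2.63 and 23.5. Of the covered length of chromosome 19, the clusters thus held 0.339% in LY19WT, and 2.37% in the mutant line. Cluster islands contained 1550 of 37556030 ChIP reads in islands of LY19WT, a share of 0.00413% (95% exact Clopper-Pearson interval 0.00392 to 0.00434), and 8647 of 17410034 in LY19Y646F, 0.0497% (0.0486 to 0.0507). These intervals cover counting error only. Signal too weak to be called may be present between islands, and reads outside islands were not analysed here.

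Each cluster was barer than the stretches of chromosome on both sides of it. Cluster 4, the interval from 52.40 to 54.00 Mb, had no island in either line. The gaps before and after it were covered to 21.5% and 17.1% in LY19WT and to 28.2% and 32.1% in LY19Y646F. Cluster 1, the longest at 4.7 Mb, was covered to 0.0383% and 0.174%, between stretches covered to 13.3% and 9.20% in LY19WT and to 9.47% and 16.0% in LY19Y646F. Clusters 2 and 3 had no island in LY19WT and were covered to 2.01% and 4.57% in LY19Y646F, and the gap between them to 33.9% and 26.7%. Cluster 5, the last interval of the long arm, had the most islands, with 5 and 15, and was covered to 0.946% and 4.79%.

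**Figure D1:**
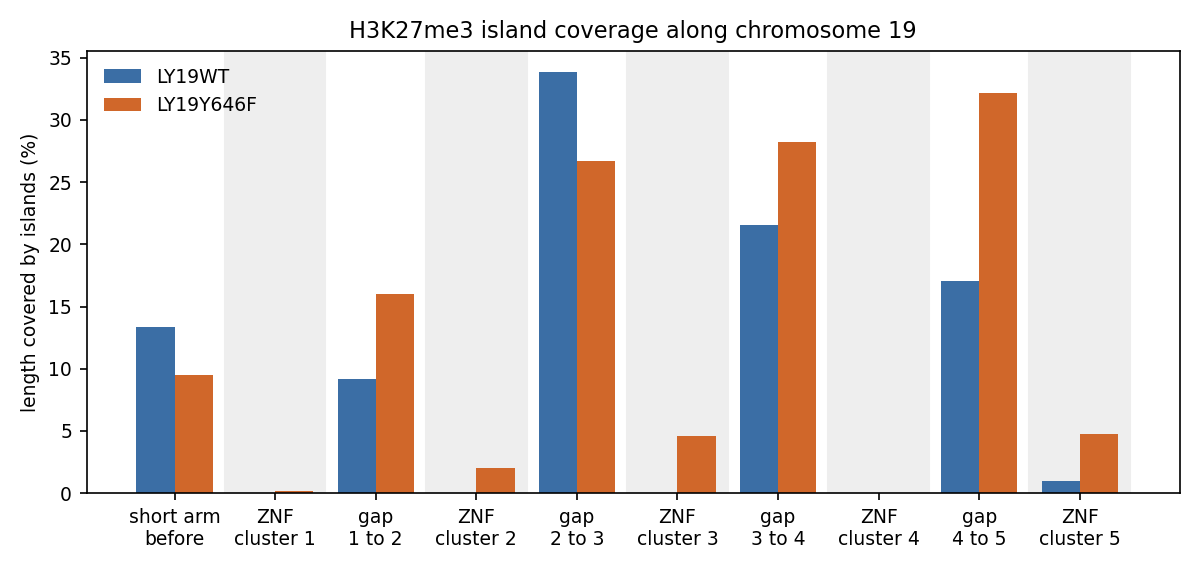
Share of the length covered by islands (vertical axis, %) in each zinc finger cluster (grey background) and in the stretches between them, in order along chromosome 19, with 1 bar per line. No cluster exceeds 4.79%, while the other stretches drawn run from 9.20% to 33.9%. The last 17.4 kb of the span, beyond cluster 5, are not drawn.

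Windows of 100 kb differed both in whether they held an island and in how far they were covered. Of the 114 cluster windows, 110 had no island in LY19WT (96.5%), against 52.3% of 29652 windows of all chromosomes and 38.1% of the 478 other windows of chromosome 19. In LY19Y646F, 99 cluster windows were empty (86.8%), against 57.4% of all windows and 42.9% of the rest of chromosome 19. The same 99 windows had no island in either line, a share of 86.8%, against 39.6% of all windows and 28.0% of the rest. The share of empty windows in the clusters thus lay above that of the genome, and the share in the rest of the chromosome below it. The 4 cluster windows with an island in LY19WT were covered to 1.8%, 5.2%, 8.4% and 11%. In LY19Y646F the fullest was covered to 69%. At least 50% was covered in 0 cluster windows in LY19WT and 1 in LY19Y646F, against 45 and 54 of the 478 windows of the rest of the chromosome.

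**Figure D2:**
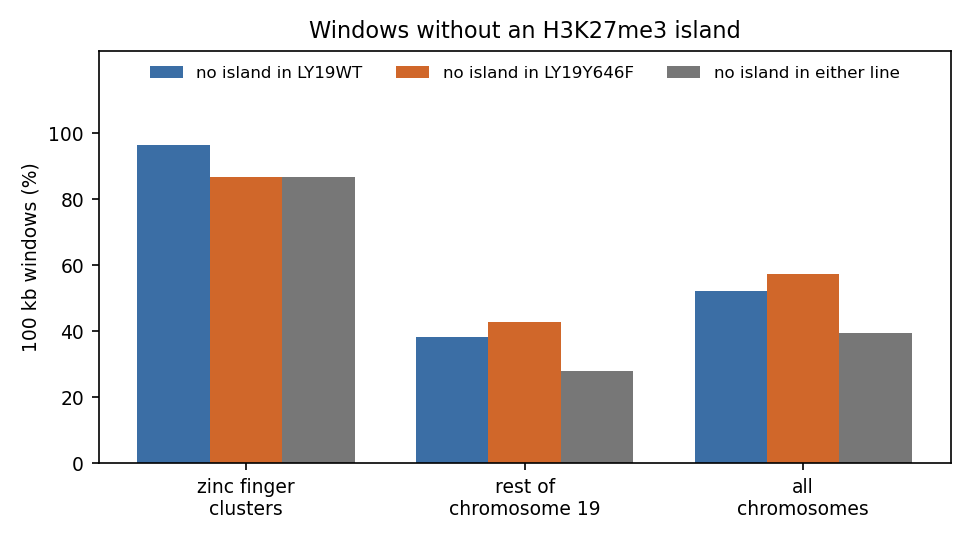
Share of 100 kb windows without an island (vertical axis, %) in the zinc finger clusters, the rest of chromosome 19 and all chromosomes, for LY19WT, LY19Y646F and for windows empty in both lists. The cluster bars stand at 96.5%, 86.8% and 86.8%, above the bars of the other sets.

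Many of the long empty stretches of the chromosome lay in the clusters, which took up 11.4 of the 59.0 Mb between its outermost islands. Of the 10 longest stretches of chromosome 19 without an island in either line, 6 lay mostly in a cluster, as did 5 of the 10 longest of each line alone. The longest of all, from 23484401 to 28312000, began in cluster 1 and ran on beyond its border for most of its 4.83 Mb. It thus also lowers the values given for the gap between clusters 1 and 2 and for the rest of the chromosome. Leaving it out raised the share of the rest under islands to 17.7% for LY19WT and to 18.9% for LY19Y646F. Cluster 1 lies next to the centromere, and whether reads can be mapped over this longest stretch was not tested. The next stretch by length, from 20162601 to 23481800, lay wholly in cluster 1 and measured 3.32 Mb. It ranked 51 among 72674 such stretches of the autosomes. The stretch from 52302401 to 54170800 enclosed cluster 4 whole and measured 1.87 Mb, and the one from 36754401 to 38309600 in cluster 2 measured 1.56 Mb. In LY19WT alone, single empty stretches enclosed clusters 2, 3 and 4 entirely, at 2.22, 0.804 and 2.27 Mb, and another, of 2.33 Mb, ran from 56714601 to 59041600 in cluster 5. Empty stretches of this kind also occurred on the chromosome outside the 5 intervals, as from 8897401 to 9698400 and from 12265801 to 12861000 in both lines. Genes were not placed on hg19, so whether these stretches hold zinc finger genes as well was not analysed.

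Pooled over borders, islands thinned out towards the clusters, at different distances in the lines. From 400 to 500 kb outside a border, coverage was 16.6% in LY19WT and 25.6% in LY19Y646F over 9 borders. From 0 to 100 kb outside it was 0.556% and 9.87%. Single borders differed, and the 500 kb outside the right border of cluster 1 had no island in either line. Among flanks of 500 kb, the fullest was covered to 25.3% in LY19WT, left of cluster 3, and to 42.4% in LY19Y646F, right of it. Inside, the 100 kb next to a border were covered to 1.62% in LY19WT and 13.9% in LY19Y646F over all 10 borders, and those from 100 to 200 kb to 0.0% and 0.3%. In LY19Y646F, 20 of the 30 islands, with 143.0 of their 204.6 kb, lay within 100 kb of a border. In LY19WT 3 of 6 did. With all borders moved inwards by 100 kb, coverage of the clusters was 0.0981% in LY19WT and 0.592% in LY19Y646F, so most of the LY19Y646F value came from the rims of the intervals. The bounds are fixed positions and genes were not assigned to islands, so whether the rims hold zinc finger genes was not analysed. The rims differed, and 1 of the 10 held 49.5% of the 139.4 kb covered there in LY19Y646F. Inside the left border of cluster 5, 69.0 of 100 kb were covered in LY19Y646F, and inside the right border of cluster 2, 29.6 kb. Nothing was covered in the 100 kb inside either border of clusters 1 and 4 in either line, and in LY19WT the borders of cluster 5 alone had islands. Without the left border of cluster 5, the 100 kb inside the borders were covered to 1.22% in LY19WT and 7.82% in LY19Y646F.

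**Figure D3:**
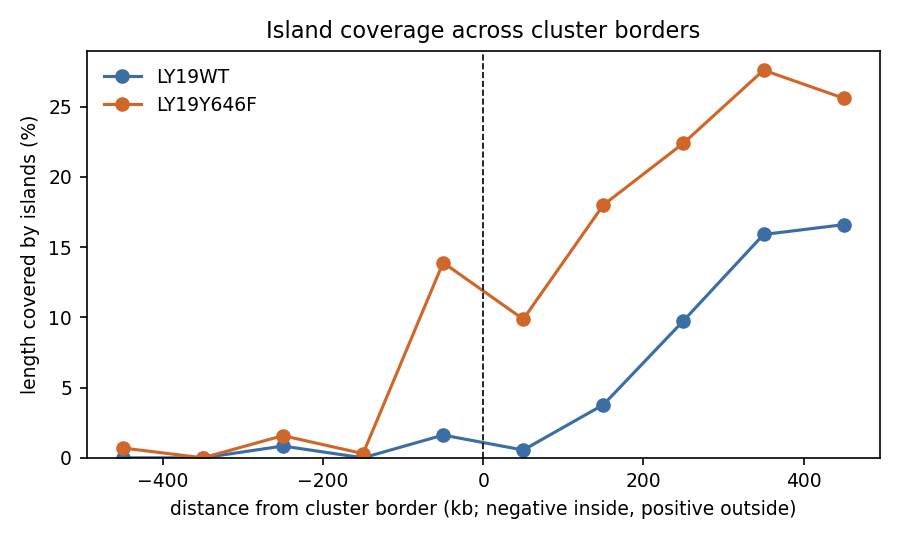
Share of length covered by islands (vertical axis, %) in 100 kb steps of distance from a cluster border (horizontal axis, kb, negative inside), pooled over borders, 1 line per cell line. Coverage inside is at most 1.62% in LY19WT, and in LY19Y646F is 13.9% next to the border (7.82% without the left border of cluster 5) and at most 1.58% farther in.

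Cluster 1, next to the centromere on the short arm, had 1 island in LY19WT and 3 in LY19Y646F, all narrow and weak. The LY19WT island, from 23481801 to 23483600, held 128 ChIP and 27 input reads, and the authors' fold was 1.54. An island of LY19Y646F began at the same base and ended at 23484400, with 152 and 43 reads and a fold of 1.35. This is the only place in cluster 1 where both lines had an island. The other LY19Y646F islands ran from 20107801 to 20109600, with 136 and 39 reads, and from 20158801 to 20162600, with 240 and 73. Their folds of 1.33 and 1.25 were in the lowest 2.55% and 0.582% of the list. Input over the 4 islands was 1.78 to 2.57 times the autosomal median of the line, and the part of dense input in these calls was not tested. The exact intervals of the 3 LY19Y646F folds, from the counting error of both read counts, reached below 1, and that of the LY19WT fold ran from 1.01 to 2.43.

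Cluster 2 had islands in LY19Y646F alone, 2 towards its left and 3 near its right border. The broadest, from 38372201 to 38387600, was 15.4 kb wide and held 687 ChIP and 111 input reads, at a fold of 2.36 (interval 1.93 to 2.91). The others near that border ran from 38309601 to 38319600 and from 38335801 to 38340000, with folds of 1.71 and 1.90. On the left, islands from 36625601 to 36629200 and from 36751401 to 36754400 had folds of 1.76 and 2.04. Input over these 5 islands was 0.848 to 1.09 times the autosomal median, unlike that in cluster 1. Between the inner pair, 1.56 Mb were free of islands.

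Cluster 3, the smallest at 0.7 Mb, had 7 islands in LY19Y646F and none in LY19WT. Of these, 3 lay side by side at its left border, from 44304601 to 44329600, with folds from 1.35 to 1.63. In LY19WT the last island before this border ended 0.4 kb outside it, and the next began 103.2 kb beyond the right border. In the middle of the interval the island from 44649401 to 44656200 had a fold of 1.43. The island from 44913601 to 44915800 held 327 ChIP and 82 input reads in 2.2 kb, and its input was 4.43 times the autosomal median, the highest of all 36 islands. Its neighbour from 44916601 to 44921000 had a fold of 1.56. That from 44960601 to 44961600 was the narrowest, at 1.0 kb, with 104 ChIP and 15 input reads and a fold of 2.65 (interval 1.53 to 4.9).

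Cluster 5 held 20 of the 36 islands, and they fell into groups. At its left border LY19Y646F had 7 islands between 56496401 and 56587800, the broadest of them 22.8 kb wide with 955 ChIP and 198 input reads and a fold of 1.84 (interval 1.58 to 2.16). LY19WT had a single island of 5.2 kb within this group, from 56568801 to 56574000, at a fold of 1.60. The window from 56500001 to 56600000 was the only cluster window whose coverage differed by 50 percentage points or more between the lines, at 69% in LY19Y646F and 5.2% in LY19WT. In the genome 2.49% of windows passed that limit towards LY19Y646F and 9.02% towards LY19WT, for which no cluster window did. At a limit of 25 points, 2 cluster windows passed towards LY19Y646F and 0 towards LY19WT, against 8.26% and 17.7% of all windows. The next group, farther in, consisted of LY19WT islands from 56703601 to 56707200 and from 56709801 to 56714600, both inside a LY19Y646F island from 56702801 to 56718600.

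Deep inside cluster 5 islands were found in LY19Y646F alone. They ran from 57328001 to 57334800, from 57637001 to 57641000, from 57727201 to 57738400 and from 58248201 to 58254000. Their folds were 1.77, 1.32, 1.63 and 1.42, all under the list median of 1.90, at 0.856 to 1.34 times the autosomal input. The intervals of these folds were 1.29 to 2.46, 0.944 to 1.89, 1.3 to 2.05 and 1.04 to 1.97. That of the island from 57637001 thus reached below 1. Near the right border both lines had the best enriched island of the clusters. In LY19WT it ran from 59046801 to 59053600, with 455 ChIP and 46 input reads and a fold of 3.22 (interval 2.37 to 4.46). In LY19Y646F it began at the same base and ended at 59049800, with 149 and 19 reads and a fold of 2.99 (interval 1.85 to 5.11). Beside it LY19WT had an island from 59041601 to 59045800, and LY19Y646F one from 59040601 to 59046000, with folds of 1.97 and 2.19. LY19Y646F had 1 more, from 59036001 to 59039600, at a fold of 1.71. At this border the islands of the lines thus lay in nearly the same places, while at the left border LY19Y646F had the wider group.

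The cluster islands were mostly weakly enriched for their lists, and their median widths lay a little under those of the lists. The median width was 4.5 kb in LY19WT and 5.2 kb in LY19Y646F, against 5.8 kb in both lists. In the rest of chromosome 19 it was 5.2 and 5.8 kb. Wider than 10 kb were 6 of the 30 LY19Y646F islands (20%). A width of 10.0 kb stands at percentile 78.5 of that list, so this share is near that of the list. The median fold of the cluster islands was 2.0 in LY19WT and 1.66 in LY19Y646F, against 2.23 and 1.98 in the rest of chromosome 19. Of the LY19Y646F islands, 23 of 30 (76.7%) had a fold under the list median, against 50% of the list by construction and 41.9% of islands in the rest of the chromosome. In LY19WT it was 5 of 6, against 49.5%. The interval of the fold reached 1 or less for 6 of 30 LY19Y646F islands (20%), against 3.75% of the list, and for 0 of 6 in LY19WT, against 2.80%. The widest cluster island measured 6.8 kb in LY19WT and 22.8 kb in LY19Y646F. Islands wider than 25 kb made up 4.16% and 1.34% of the rest of chromosome 19, so that their absence among 6 and 30 islands is near that share.

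**Figure D4:**
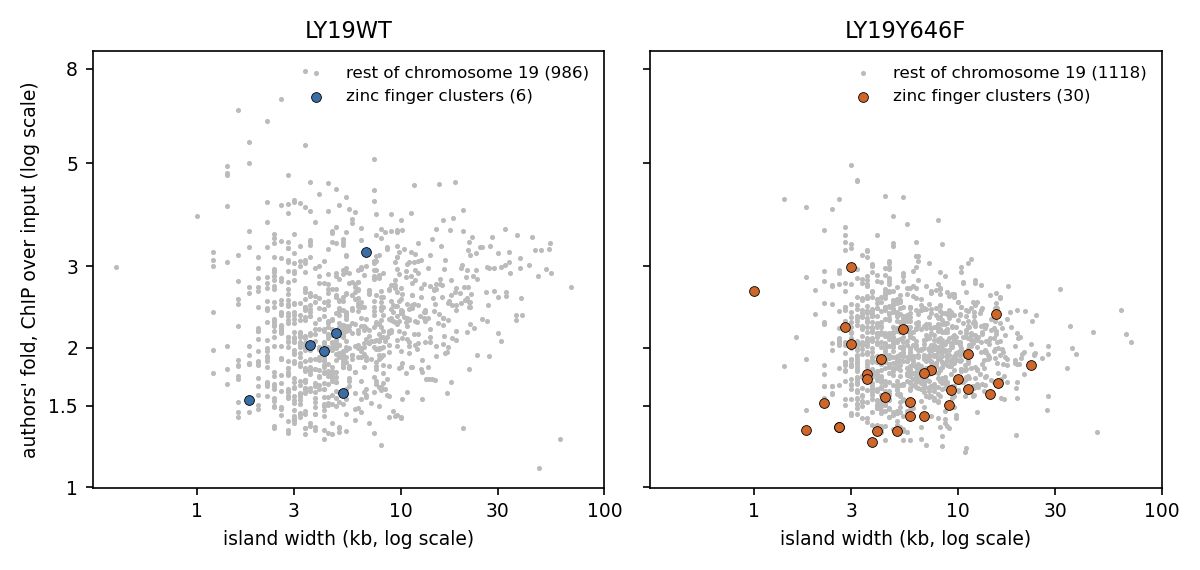
Each point is an island of chromosome 19, by width (horizontal axis, kb, log scale) and the authors' fold of ChIP over input (vertical axis, log scale), with zinc finger cluster islands in colour and the others in grey. The 6 cluster islands of LY19WT and 30 of LY19Y646F lie at folds of 1.54 to 3.22 and 1.25 to 2.99, respectively, and none is wider than 22.8 kb.

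Input differed among the cluster islands. It exceeded 1.5 times the autosomal median in 6 of 30 LY19Y646F islands (20%), against 1.77% of the list and 1.43% of its islands in the rest of chromosome 19. In LY19WT it did so in 1 of 6, against 3.46% of the list and 8.72% of its islands in the rest of the chromosome. All 6 such LY19Y646F islands lay in clusters 1 and 3. The remaining cluster islands had input near the autosomal median, so that the median over all of them was 1.15 times it in LY19WT and 1.07 times in LY19Y646F, against 1.05 and 0.975 in the rest of the chromosome. Without the islands of high input, 5 and 24 remained, covering 0.216% and 1.64% of the clusters. Input reads were listed in islands alone, so DNA abundance and mappability over the empty parts of the clusters were not analysed here.

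The few LY19WT islands all had a counterpart in LY19Y646F, but not the reverse. All 6 were overlapped by a LY19Y646F island, against 39.1% of the LY19WT list and 59.4% of its islands in the rest of chromosome 19. Of the 30 LY19Y646F islands, 5 were overlapped (16.7%), against 56.5% of the list and 58.8% in the rest of the chromosome. Shared length was 22.6 kb, which is 85.6% of what LY19WT islands covered in the clusters and 11.2% of what LY19Y646F islands covered. The Jaccard index (shared length divided by all covered length) was 0.110 in the clusters and 0.329 in the rest. With 6 LY19WT islands of at most 6.8 kb, few of the 30 LY19Y646F islands could be overlapped. The low LY19Y646F share and the low index thus follow largely from the few LY19WT islands and say little about matching. No window of the clusters was covered by more in LY19WT, and 15 of 114 were covered by more in LY19Y646F (13.2%), against 34.8% and 25.5% of all windows. Covered length in LY19Y646F was 7.61 times that in LY19WT in the clusters and 1.07 times in the rest of the chromosome, on the small base of 26.4 kb. By the factors of the lists, ChIP of LY19WT was 1.17 times deeper relative to input, and the part of depth in the difference between the lines was not tested. The gap between clusters 4 and 5 ran the same way, with 17.1% in LY19WT and 32.1% in LY19Y646F, and that between clusters 2 and 3 the other way.

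Where the lists overlapped in the clusters, neither line had the higher fold throughout. The 6 overlaps had log2 ratios of the authors' folds, LY19Y646F over LY19WT, from -0.36 to 0.28, with 4 of 6 below 0. Of these 4, 2 share the LY19Y646F island from 56702801 to 56718600. Only 2 of the 6 overlaps were matched by at least 50% of both islands, with log2 ratios of -0.19 and 0.16. Over 284 such pairs in the rest of chromosome 19 the median was -0.24 and 69.7% were below 0, against 72.7% over all chromosomes. Neither line was higher throughout there either, and 4 of 6 is near these shares. With 2 pairs no difference between clusters and rest can be read from these values. Scaling ChIP reads by their total in islands raised the median of each set, to 0.66 in the clusters, 0.60 in the rest of the chromosome and 0.55 over all chromosomes, so the sign depends on the scaling in all 3.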

How the data were processed

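Per the submitters' processing notes, the build was hg19 and the tools were Bowtie2 2.2.9, SAMtools 1.3.1, SICER and bedtools, the last 2 without a version. Islands had been called per line on merged ChIP replicates against the input of that line at an FDR of 0.001, per the labels. The deposited counts are raw ChIP and input reads per island. The deposited fold is the ratio of the 2 counts over a factor that is fixed within a list, and the values give 3.07 for LY19WT and 2.62 for LY19Y646F. The deposited p-value and FDR come from the authors' calling and served only to order or filter islands. A few islands may be missing from the lists at hand.

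Islands were assigned to the intervals by an overlap of at least 1 bp, and lengths were clipped at the interval bounds. Positions are 1-based hg19. Windows of 100 kb spanned each chromosome between its outermost islands. Input density was set against its autosomal median over islands (LY19WT 8.41, LY19Y646F 8.42 reads per kb). By the ratio of the list factors, ChIP of LY19WT was 1.17 times deeper relative to input. Intervals of folds were computed from the exact Clopper-Pearson interval (95%) of the ChIP share of reads. Calculations, in Python 3.11.15 with pandas 2.3.3, numpy 2.4.6, biopython 1.88, scipy 1.17.1 and matplotlib 3.10.9, were tested on simulated lists with planted coverage and overlap. Regions named were the longest and the best enriched island, the longest empty stretch and the windows of largest difference in each interval, and since members were few nearly all were named. The members and lists were chosen with earlier results of these data known. Promoter sequences are from RefSeq on GRCh38.p14, and genes were not assigned to islands.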

Additional observations from a re-analysis of the deposited data

How the results depend on the processing

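Of 132 recalculations of 25 results, 33 moved the value by over 1.5 times, to or from 0, or past 0, among them 22 of 100 covered shares, 1 of them of the rest of chromosome 19. With so few islands the size of a covered share in the clusters is thus uncertain. Coverage of the clusters stayed below that of the rest of chromosome 19 in 12 of 12 comparisons at stricter FDR, with joined islands, at equal list length and with moved bounds. Among them, LY19Y646F at equal list length only repeated the main result, since its list was not cut. Coverage of the clusters ran from 0.0205% (cluster 5 left out) to 0.367% (cluster 1 left out) in LY19WT. In LY19Y646F it ran from 0.592% (bounds inwards) to 2.88% (cluster 1 left out), and leaving out cluster 5 gave 0.868%. Inward bounds brought cluster 2 of LY19Y646F from 2.01% to 0.188%, cluster 3 from 4.57% to 1.36% and cluster 5 from 4.79% to 1.82%. Shortening the LY19WT list, ordered by p-value, until both lists covered equal length left 1 LY19WT island in the clusters, coverage of 0.0596% and a Jaccard index of 0.0146, and brought the rest of the chromosome to 10.2% and cluster 1 to 0%. This follows from fewer LY19WT islands, since the LY19Y646F list stayed whole. At an FDR of 1e-10, LY19Y646F had 19 cluster islands and cluster 1 was covered to 0% in both lines, and at 1e-05 it was covered to 0% in LY19Y646F. Requiring an overlap of 50% of each island of a pair left 33.3% of the LY19WT cluster islands shared, and 6.67% in LY19Y646F. Over all chromosomes it left 8368 pairs, where 22735 LY19WT and 26811 LY19Y646F islands had been overlapped, so the shares fell there too. Windows with an excess of 50 percentage points in LY19Y646F numbered 2 at 50 kb and 0 at 200 kb, and 2 at a limit of 25 points. The median log2 ratio of the 2 matched pairs was -0.019 and turned to 0.66 when scaled by total ChIP reads, a scaling that moved the rest of the chromosome likewise, from -0.24 to 0.60. At 80% overlap 0 pairs were left. The removal of islands of high input, the omission of the left border of cluster 5 and the shares of empty windows at other window sizes (90.4% at 50 kb, 80.4% at 200 kb) were chosen after seeing the data. No paired analysis was possible because the replicates of a line were merged before islands were called, and for the same reason no replicate could be left out. Depth limits the bare stretches: 95% of called islands had at least 45.6 (LY19WT) or 35.4 (LY19Y646F) ChIP reads per kb, and weaker signal cannot be seen in the lists.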
